A study of Mus musculus with 12 samples.

Results

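Autophagy and lysosome genes are described here in mouse liver with and without lipin 1. The set holds 35 genes listed by symbol, and was chosen with earlier results of these data known. All 35 were among the 22456 genes of the deposited expression matrix. They were also among the 11507 that passed a filter of a mean of at least 0.5 RPKM. RPKM are the reads of a gene scaled by its length and by the reads of the library. The study asked how lipin 1 affects liver gene expression and splicing in fasting and feeding, and sequenced RNA of 12 livers. Lipin 1 is both a phosphatidic acid phosphatase and a transcriptional coactivator. All mice were BALB/cByJ males aged 2 to 8 months, either wild-type Lpin1+/+ littermates (labelled WT) or Lpin1-/- mice, which carry the fatty liver dystrophy mutation in every tissue (labelled FLD). Each mouse was housed alone and fasted overnight for 16 h. The fasted groups (3 Lpin1+/+ and 3 Lpin1-/-) were taken at that point, and the refed groups (3 and 3) after a further 5 h with chow, so that feeding and time of day changed together.

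In autophagy, a membrane sac forms around cytoplasm or an organelle, closes and fuses with a lysosome, whose hydrolases break the contents down. The ULK kinase complex starts the process, a lipid kinase complex marks the membrane with PI3P, and ubiquitin-like conjugation attaches ATG8 proteins to the growing membrane, where they hold cargo receptors. Autophagy is a known source of amino acids and fatty acids in fasted liver, and TFEB and TFE3 are known transcription factors of lysosomal and autophagy genes.

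Lpin1 itself was at 0.00573 to 0.0597 RPKM in the 6 Lpin1-/- libraries and at 0.726 to 22.0 RPKM in the 6 Lpin1+/+ libraries, with no overlap, although the test did not pass in fasted liver (adjusted p = 0.0562) or refed liver (adjusted p = 0.231). Summed markers of hepatocytes (6 genes) were between 32782 and 72038 RPKM in the 12 libraries, against 37.5 to 329 RPKM for 8 macrophage markers, and relative sequencing depth varied by 1.34-fold. The second refed Lpin1+/+ library had the lowest hepatocyte sum and the highest macrophage sum. The first fasted Lpin1-/- library had 451 RPKM of 5 cholangiocyte markers, against 19.2 to 103 RPKM elsewhere, and the first fasted Lpin1+/+ library had the lowest RPKM total and the highest Lpin1 value. In whole liver, fewer cells of a type and less RNA per cell cannot be told apart.

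Loss of lipin 1 went with higher RNA of a few autophagy and lysosome genes in both feeding states, led by Ctsl (cathepsin L) and Map1lc3b (the ATG8 protein LC3B), and with lower Lipa (lysosomal acid lipase) in fasted liver. In fasted liver, 6 of the 35 genes passed the threshold of an adjusted p below 0.05 in limma, 3 higher and 3 lower in Lpin1-/- liver (17.1%, against 18.8% of all genes tested). In refed liver, 4 passed, all higher in Lpin1-/- liver (11.4%, against 6.67% of all genes). Refeeding moved 5 of the genes in Lpin1-/- liver, 3 up and 2 down (14.3%, against 20.7% of all genes). In Lpin1+/+ liver, refeeding moved 0 by limma, with 5 at an unadjusted p below 0.05 (1.72% of all genes passed the adjusted threshold). The interaction, which asks whether the genotypes responded differently to feeding, passed for 0 of the 35 in limma (7 at an unadjusted p below 0.05), against 1.28% of all genes. Whether any of these shares differs from that of all genes was not tested, and each rests on at most 6 genes. The counts also moved when a single library was omitted. For genotype they were then 3 to 7 when fasted and 3 to 5 when refed. For refeeding of Lpin1-/- mice the count was 2 to 10. The share of all genes in these fits is not given, so these counts cannot be placed above or below it.

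Groups without any overlap between their libraries were seen for 10 of the 35 genes between genotypes in fasted liver (32.9% of all genes), 17 in refed liver (33.9% of all genes), 12 for refeeding in Lpin1-/- liver (46.8% of all genes) and 8 for refeeding in Lpin1+/+ liver (18.1% of all genes). The median log2 fold change of the 35 genes was -0.07 between genotypes in fasted liver, beside -0.14 over all genes tested, and 0.10 in refed liver, beside -0.07 over all genes. For refeeding it was -0.03 in Lpin1+/+ liver, beside 0.19 over all genes, and 0.22 in Lpin1-/- liver, beside 0.25 over all genes. When the libraries were rescaled by median ratios, the medians for refeeding in Lpin1+/+ and Lpin1-/- liver moved to -0.000391 and 0.06 for all genes and to -0.26 and -0.02 for the 35 genes, so that the latter stayed below the former.

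**Figure D1:**
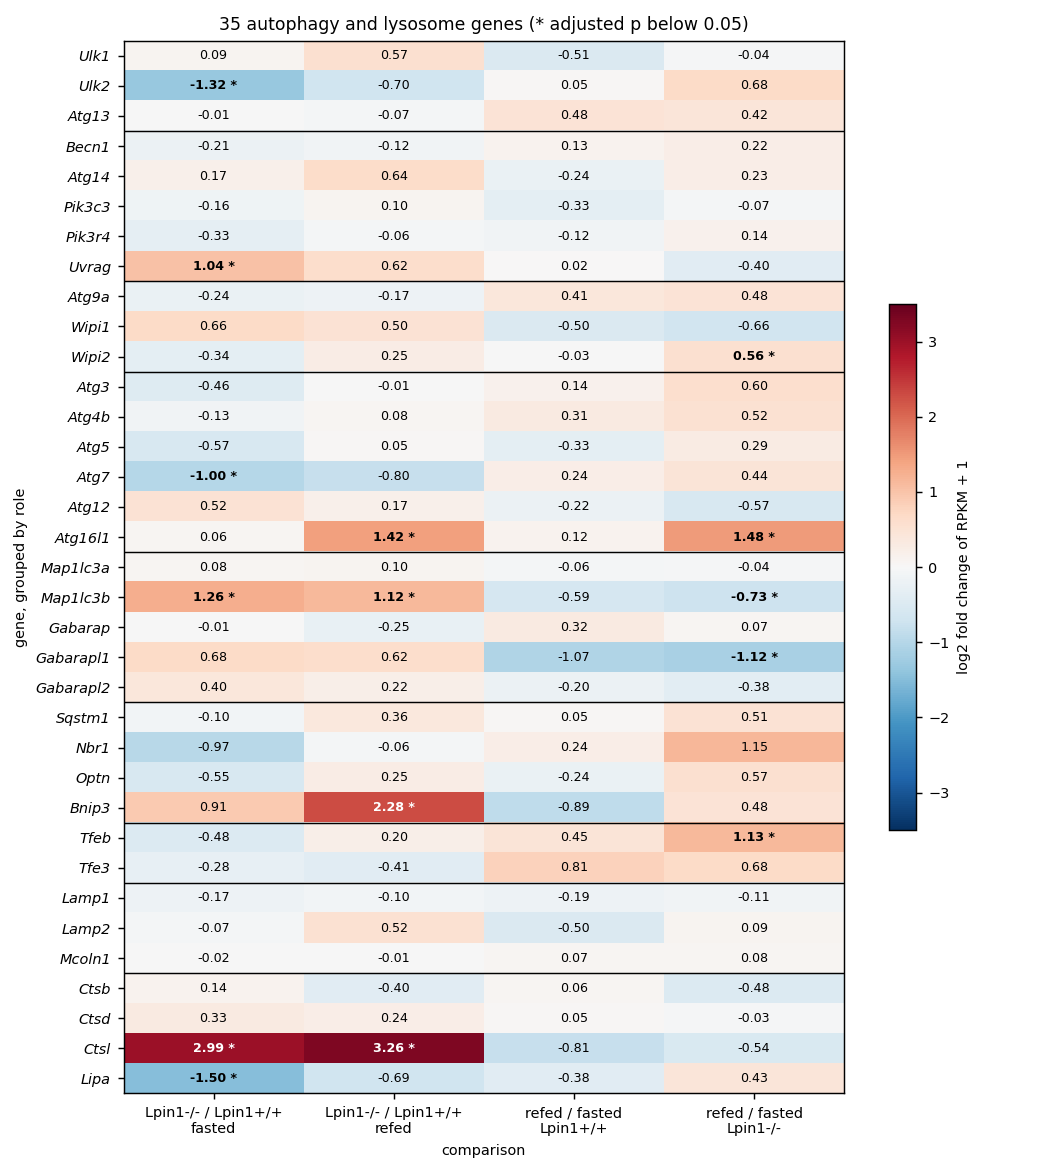
Log2 fold change of RPKM + 1 for each of the 35 genes (vertical axis, grouped by role) in the 4 comparisons (horizontal axis), with red for higher, blue for lower and a star where the adjusted p of limma was below 0.05. The strongest colours are the 2.99 and 3.26 of Ctsl and the 2.28 of Bnip3, and no star stands in the column of refeeding in Lpin1+/+ liver.

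Of the initiation genes, Ulk2 was lower in fasted Lpin1-/- liver, whereas Atg13 passed in no comparison. Ulk2, a kinase that can stand in for ULK1 at the start of autophagy, was at 17.4, 6.85 and 12.3 RPKM in the fasted Lpin1+/+ libraries and at 2.41, 5.85 and 4.29 RPKM in the fasted Lpin1-/- libraries. The groups did not overlap, and the log2 fold change was -1.32 (SE 0.34, adjusted p = 0.0191), a mean 2.91-fold lower. Without the first fasted Lpin1+/+ library the call was lost (log2 fold change -1.04, adjusted p = 0.0571), as it was without the third library (adjusted p = 0.0716) and without the first fasted Lpin1-/- library (adjusted p = 0.0701). In refed liver, Ulk2 was at 14.5, 9.08 and 12.8 RPKM in Lpin1+/+ and 8.6, 5.93 and 6.59 RPKM in Lpin1-/- libraries, again without overlap, and the difference did not pass (log2 -0.70, adjusted p = 0.247). Atg13, the scaffold of the ULK complex, was at 17.4, 7.45 and 12.1 RPKM in fasted Lpin1+/+, 7.46, 13.9 and 14.8 RPKM in fasted Lpin1-/-, 16.2, 13.7 and 21.0 RPKM in refed Lpin1+/+ and 21.4, 12.4 and 15.1 RPKM in refed Lpin1-/- libraries. Its groups overlapped between the genotypes in both states. On refeeding its log2 difference was 0.48 in Lpin1+/+ (adjusted p = 0.559) and 0.42 in Lpin1-/- liver (adjusted p = 0.376), with overlap in both.

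Among the genes of the PI3-kinase complexes, Uvrag was higher in fasted Lpin1-/- liver, and the other 4 did not pass in any comparison. Uvrag, a subunit of the complex that acts on late autophagosomes and endosomes, was at 18.0, 7.28 and 10.8 RPKM in fasted Lpin1+/+ and at 20.1, 25.2 and 28.1 RPKM in fasted Lpin1-/- libraries. Every Lpin1-/- value was above every Lpin1+/+ value, with a mean 2.03-fold higher (log2 fold change 1.04, SE 0.28, adjusted p = 0.0265). The call was lost without the second or the third library of either fasted Lpin1+/+ or fasted Lpin1-/- liver, where the adjusted p was between 0.0691 and 0.0891. Refed libraries were at 13.6, 10.1 and 10.9 RPKM in Lpin1+/+ and 23.4, 16.2 and 15.8 RPKM in Lpin1-/- liver, and there the difference did not pass (log2 0.62, adjusted p = 0.226). Becn1, the core subunit beclin 1, stayed within a narrow range, with 30.9, 24.4 and 33.8 RPKM in fasted Lpin1+/+, 20.7, 27.9 and 28 RPKM in fasted Lpin1-/-, 34.8, 30.2 and 32.2 RPKM in refed Lpin1+/+ and 30.4, 30.1 and 28.6 RPKM in refed Lpin1-/- libraries.

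Wipi2, which reads PI3P on the forming membrane and recruits the conjugation machinery, rose on refeeding in Lpin1-/- liver. It was at 22.9, 21.8 and 25.7 RPKM in fasted and 35.5, 35.2 and 34.6 RPKM in refed Lpin1-/- libraries, a mean 1.49-fold higher with no overlap (log2 fold change 0.56, SE 0.17, adjusted p = 0.0340). In Lpin1+/+ liver it was at 30.9, 25.4 and 34.0 RPKM fasted and 34.5, 25.7 and 28.5 RPKM refed, and these groups overlapped. The call for Wipi2 depended on scaling, since with median-ratio scaling the log2 fold change was 0.32 and the adjusted p 0.252, and it was also lost when either of the first 2 fasted or any of the 3 refed Lpin1-/- libraries was left out (adjusted p from 0.0805 to 0.0995). The other PI3P effector, Wipi1, and the lipid scramblase gene Atg9a did not pass in any comparison.

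Of the 6 conjugation genes, Atg16l1 and Atg7 passed, in different comparisons. Atg16l1, whose protein directs LC3 lipidation to the membrane and is recruited there by WIPI2, was at 12.9, 10.3 and 13.8 RPKM in fasted Lpin1+/+, 9.53, 10.8 and 20.3 RPKM in fasted Lpin1-/- and 15.1, 12.4 and 12.8 RPKM in refed Lpin1+/+ libraries, and at 50.0, 33.5 and 31.8 RPKM in refed Lpin1-/- libraries. Only the refed Lpin1-/- group stood apart from the others. Atg16l1 rose 2.84-fold on refeeding in Lpin1-/- liver (log2 fold change 1.48, SE 0.27, adjusted p = 0.00416) and was 2.86-fold higher than in refed Lpin1+/+ liver (log2 fold change 1.42, SE 0.27, adjusted p = 0.0120). Without the first refed Lpin1-/- library, which had the highest value, the difference between genotypes was 1.22 on the log2 scale with an adjusted p of 0.0539, whereas the rise on refeeding still passed. The interaction was 1.36 on the log2 scale and did not pass (adjusted p = 0.102). It passed only without the third fasted Lpin1-/- library (1.68, adjusted p = 0.0337).

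Atg7, the E1 enzyme that activates both conjugation systems, was at 18.5, 8.79 and 13.5 RPKM in fasted Lpin1+/+ and 3.97, 5.86 and 9.05 RPKM in fasted Lpin1-/- libraries (log2 fold change -1.0, SE 0.30, adjusted p = 0.0393). These groups overlapped, because the highest Lpin1-/- value was above the lowest Lpin1+/+ value. Atg7 was the least stable of the calls: it was lost when any of 7 single libraries was left out, including the first fasted library of either genotype, and without the first fasted Lpin1+/+ library the log2 fold change was -0.77 (adjusted p = 0.116). Refed libraries were at 15.1, 13.6 and 18.2 RPKM in Lpin1+/+ and 11.0, 7.29 and 7.55 RPKM in Lpin1-/- liver, with no overlap but no call (log2 -0.80, adjusted p = 0.141). Atg3, the E2 enzyme that hands ATG8 proteins to the lipid, had the highest level of this group, with 47.1, 64.6 and 66.7 RPKM in fasted Lpin1+/+, 34.9, 47.6 and 45.6 RPKM in fasted Lpin1-/-, 66.3, 54.7 and 75.1 RPKM in refed Lpin1+/+ and 59.0, 65.5 and 69.8 RPKM in refed Lpin1-/- libraries. Its refed values in Lpin1-/- liver were all above the fasted ones, with an adjusted p of 0.0509 for a log2 difference of 0.60, which passed without the first fasted (adjusted p = 0.0287) or the second refed Lpin1+/+ library (adjusted p = 0.0485). Atg5, part of the same conjugate as ATG16L1, passed between genotypes in fasted liver only without the first fasted Lpin1+/+ library (log2 -0.68, adjusted p = 0.0459) or the first refed Lpin1-/- library (adjusted p = 0.0486).

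In the ATG8 family, Map1lc3b passed between genotypes in both states and on refeeding of Lpin1-/- liver. Gabarapl1 passed only on refeeding of Lpin1-/- liver. Map1lc3b encodes LC3B, the usual marker of autophagosomes. It was at 148, 166 and 155 RPKM in fasted Lpin1+/+ and 386, 320 and 429 RPKM in fasted Lpin1-/- libraries, and at 123, 94.7 and 94.7 RPKM in refed Lpin1+/+ and 210, 248 and 222 RPKM in refed Lpin1-/- libraries. All 6 Lpin1-/- values were above all 6 Lpin1+/+ values. The mean was 2.42-fold higher in fasted Lpin1-/- liver (log2 fold change 1.26, SE 0.18, adjusted p = 0.00120) and 2.18-fold higher in refed Lpin1-/- liver (log2 fold change 1.12, SE 0.18, adjusted p = 0.00617). Map1lc3b fell on refeeding in Lpin1-/- liver (log2 fold change -0.73, adjusted p = 0.0158, a mean 1.67-fold lower), but not without the first (adjusted p = 0.0508) or the third refed Lpin1-/- library (adjusted p = 0.0571). In Lpin1+/+ liver the refed values were also all below the fasted ones, but the log2 difference of -0.59 did not pass (adjusted p = 0.148).

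Gabarapl1, a member of the GABARAP branch, was at 361, 295 and 426 RPKM in fasted and 195, 119 and 211 RPKM in refed Lpin1+/+ libraries. Every refed Lpin1+/+ value was below every fasted one, and the mean was 2.06-fold lower, but this did not pass (log2 -1.07, adjusted p = 0.169). In Lpin1-/- liver it was at 359, 623 and 835 RPKM fasted and 360, 231 and 215 RPKM refed. Here the groups touched at their edges and the fall passed (log2 fold change -1.12, SE 0.34, adjusted p = 0.0368), but not without any one of 5 libraries (adjusted p from 0.0503 to 0.118). The feeding differences of Gabarapl1 were thus of like size in both genotypes. Its mean was also higher in Lpin1-/- liver, by 0.68 on the log2 scale when fasted (adjusted p = 0.188). When refed the difference was 0.62, without overlap (adjusted p = 0.308). Gabarap, the family member with the highest mean level, was at 266, 431 and 431 RPKM in fasted Lpin1+/+, 410, 342 and 349 RPKM in fasted Lpin1-/-, 428, 490 and 456 RPKM in refed Lpin1+/+ and 316, 432 and 416 RPKM in refed Lpin1-/- libraries, and passed in no comparison. Map1lc3a and Gabarapl2 did not pass either.

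Bnip3, which sits on the outer mitochondrial membrane and binds ATG8 proteins in mitophagy, was the cargo receptor with the highest level and the only one of the 4 to pass. It was at 345, 138 and 256 RPKM in refed Lpin1+/+ and 867, 1403 and 1165 RPKM in refed Lpin1-/- libraries. The refed Lpin1-/- mean was 4.65-fold higher (log2 fold change 2.28, SE 0.37, adjusted p = 0.00643). In fasted liver it was at 355, 513 and 426 RPKM in Lpin1+/+ and 551, 791 and 1188 RPKM in Lpin1-/- libraries, again without overlap, with a mean 1.96-fold higher and no call (log2 0.91, adjusted p = 0.107). The difference between the states was not shown (interaction 1.37 on the log2 scale, adjusted p = 0.202). Optn, a receptor for ubiquitin-tagged mitochondria and bacteria, was at 45.0, 31.5 and 42.1 RPKM in fasted Lpin1+/+ and 20.5, 28.4 and 31.1 RPKM in fasted Lpin1-/- libraries, and at 33.8, 32.7 and 32.6 RPKM in refed Lpin1+/+ and 36.5, 43.3 and 39.1 RPKM in refed Lpin1-/- libraries. The Lpin1-/- values were thus all lower in fasted and all higher in refed liver, but no comparison of the Optn level passed in the main fit. The genotype difference in fasted liver passed without the second fasted Lpin1+/+ library (log2 -0.71, adjusted p = 0.0302). Refeeding in Lpin1-/- liver passed in some alternatives, among them a lowest mean of 5 RPKM (adjusted p from 0.0383 to 0.0470).

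Of the transcription factors, Tfeb rose on refeeding in Lpin1-/- liver. It was at 1.18, 3.49 and 2.45 RPKM in fasted and 5.76, 6.34 and 6.08 RPKM in refed Lpin1-/- libraries, a mean 2.55-fold higher without overlap (log2 fold change 1.13, SE 0.25, adjusted p = 0.00972). The Lpin1+/+ libraries were at 3.87, 2.69 and 4.09 RPKM fasted and 5.04, 5.74 and 4.75 RPKM refed, which also did not overlap, and the log2 difference of 0.45 did not pass (adjusted p = 0.455). Tfe3 was at 9.06, 2.91 and 6.10 RPKM in fasted Lpin1+/+, 2.34, 5.11 and 6.70 RPKM in fasted Lpin1-/-, 12.9, 9.21 and 9.64 RPKM in refed Lpin1+/+ and 10.5, 6.97 and 6.06 RPKM in refed Lpin1-/- libraries. Its refed Lpin1+/+ values were all above the fasted ones, without a call.

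**Figure D2:**
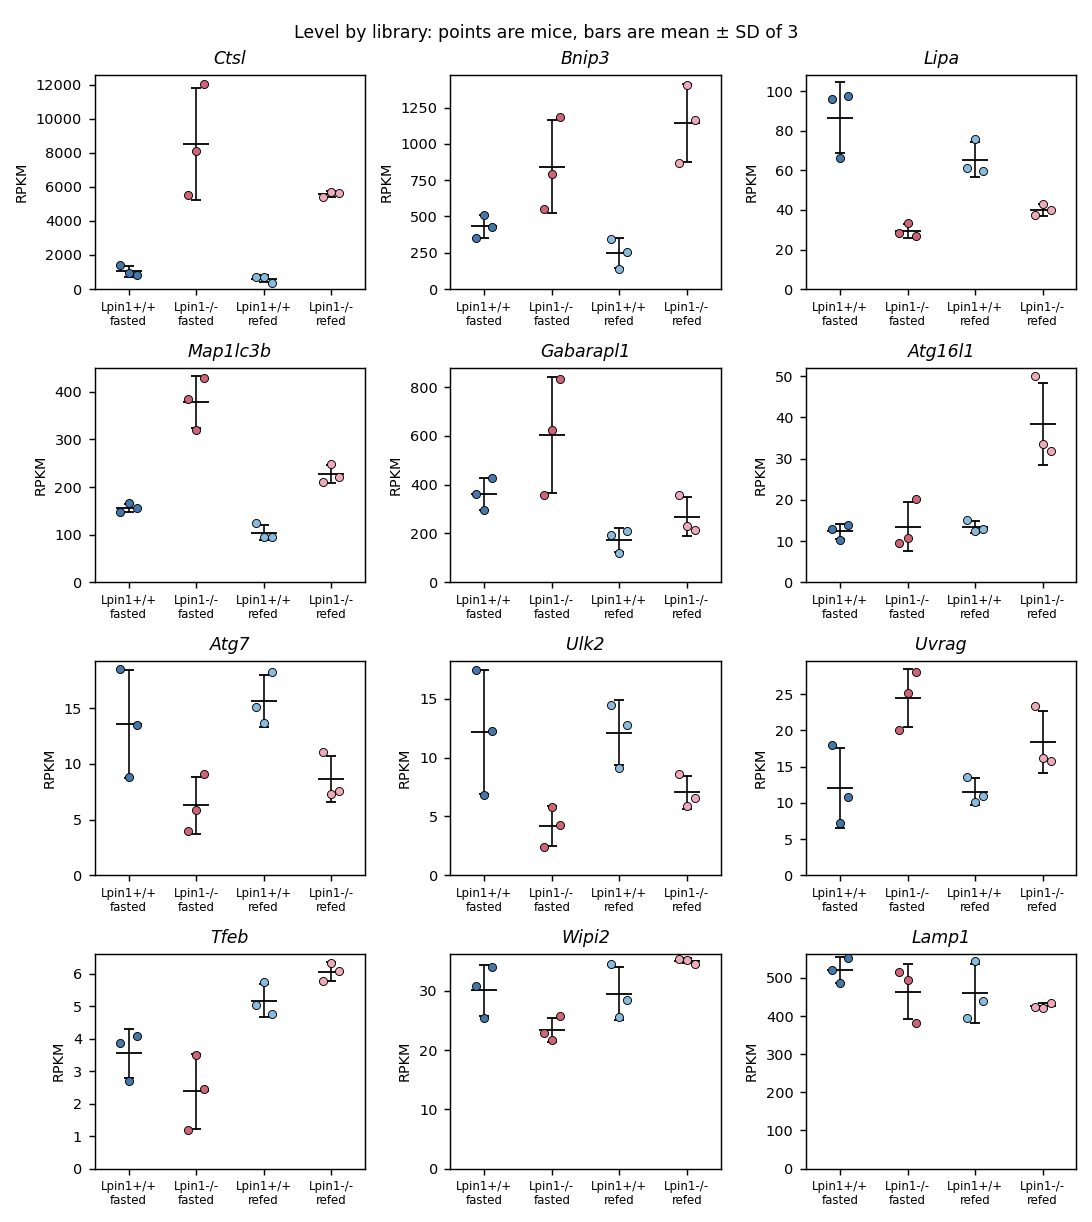
RPKM (vertical axes, each from 0) of 12 genes in the 4 groups (horizontal axes), with 1 point for each mouse and bars for the mean and SD of 3 mice. Ctsl, Map1lc3b and Bnip3 have all Lpin1-/- points above the Lpin1+/+ points of the same feeding state, Lipa has them below, and Lamp1 lies at a like level in all groups.

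The lysosomal membrane genes did not pass in any comparison. Lamp1, a main glycoprotein of the lysosomal membrane, was at 522, 485 and 554 RPKM in fasted Lpin1+/+, 514, 495 and 382 RPKM in fasted Lpin1-/-, 395, 545 and 439 RPKM in refed Lpin1+/+ and 423, 420 and 435 RPKM in refed Lpin1-/- libraries. Its log2 differences in the 4 comparisons lay between -0.19 and -0.10. Lamp2, the receptor of chaperone-mediated autophagy in one of its isoforms, did not overlap between genotypes in refed liver (log2 0.52, adjusted p = 0.0817).

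The hydrolases held the largest differences in both directions. Ctsl encodes cathepsin L, a cysteine protease of the lysosome. It was at 1412, 929 and 812 RPKM in fasted Lpin1+/+ libraries (mean 1051 ± 318, SD, n = 3) and at 5495, 8080 and 12004 RPKM in fasted Lpin1-/- libraries (8526 ± 3278). Refed libraries were at 736, 695 and 382 RPKM in Lpin1+/+ (604 ± 193) and 5388, 5711 and 5634 RPKM in Lpin1-/- liver (5577 ± 169). The lowest Lpin1-/- value was thus above the highest Lpin1+/+ value in both states. The mean was 8.11-fold higher in fasted (log2 fold change 2.99, SE 0.36, adjusted p = 0.000563) and 9.23-fold higher in refed Lpin1-/- liver (log2 fold change 3.26, SE 0.36, adjusted p = 0.00109). The refeeding differences of Ctsl were -0.81 (adjusted p = 0.346) in Lpin1+/+ and -0.54 (adjusted p = 0.305) in Lpin1-/- liver on the log2 scale. Of the RPKM summed over the 35 genes, Ctsl made up 10.7% to 28.2% in Lpin1+/+ and 54.4% to 69.8% in Lpin1-/- libraries.

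Lipa encodes the acid lipase that splits cholesteryl esters and triglycerides delivered to the lysosome. It was at 96.1, 66.0 and 97.8 RPKM in fasted Lpin1+/+ (mean 86.7 ± 17.9, SD, n = 3) and 28.2, 33.6 and 27.0 RPKM in fasted Lpin1-/- libraries (29.6 ± 3.53). The Lpin1-/- values were all lower, the mean by 2.93-fold (log2 fold change -1.50, SE 0.19, adjusted p = 0.000663). In refed liver it was at 61.2, 75.7 and 59.6 RPKM in Lpin1+/+ and 37.3, 43.0 and 39.8 RPKM in Lpin1-/- libraries. These did not overlap either, and the log2 difference of -0.69 narrowly missed the threshold (adjusted p = 0.0523) but passed in 4 of the alternatives, with an adjusted p of 0.0418 without the first and 0.0322 without the second fasted Lpin1+/+ library, which share the estimate of the spread.

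The other cathepsins of the set, Ctsb and Ctsd, did not pass in any comparison. Ctsb was at 312, 289 and 373 RPKM in fasted Lpin1+/+, 496, 345 and 261 RPKM in fasted Lpin1-/-, 239, 588 and 273 RPKM in refed Lpin1+/+ and 237, 283 and 247 RPKM in refed Lpin1-/- libraries. The 3 libraries with the highest sum of the 8 macrophage markers (329, 260 and 170 RPKM) also had the 3 highest values of Ctsb (588, 496 and 373 RPKM). For Ctsl, the library with the highest macrophage sum, from refed Lpin1+/+ liver, had 695 RPKM. The library with 119 RPKM of macrophage markers, from fasted Lpin1-/- liver, had 12004 RPKM of Ctsl, but these libraries differ in genotype and feeding. Between genotypes, 0 of the 8 macrophage markers passed in limma in either state (0 at an unadjusted p below 0.05). In Lpin1-/- liver 7 of the 8 were higher and 1 lower when fasted (median log2 difference 0.53). When refed, 1 was higher and 7 were lower (median -1.12). Their sum ranged from 71.7 to 170 RPKM in fasted Lpin1+/+, 119 to 260 RPKM in fasted Lpin1-/-, 42.8 to 329 RPKM in refed Lpin1+/+ and 37.5 to 90.9 RPKM in refed Lpin1-/- libraries. On refeeding in Lpin1-/- liver all 8 macrophage markers had negative log2 differences (median -1.39), of which Clec4f, a Kupffer cell lectin, passed (-1.28, adjusted p = 0.0236). In the same comparison all 5 cholangiocyte markers and all 5 lymphocyte and neutrophil markers tested were negative (medians -0.79 and -0.67), and 0 of them passed in limma (1 of each list at an unadjusted p below 0.05). Between genotypes in fasted liver all 5 of each list were positive (medians 1.01 and 0.75), and 0 passed. In refed liver all 5 cholangiocyte markers were negative (median -0.50). Of the lymphocyte and neutrophil markers 2 were positive and 3 negative there, and 0 of either list passed. Summed over 6 genes, stellate cell markers were at 302 to 434 RPKM in fasted Lpin1-/- and 104 to 260 RPKM in fasted Lpin1+/+ libraries. Of these 6 genes 5 were positive and 1 negative, and 0 passed in limma (2 at an unadjusted p below 0.05). Among the 6 liver endothelial markers only Lyve1 passed, higher in fasted Lpin1-/- liver (log2 fold change 1.77, adjusted p = 0.0209). There 4 of the 6 were positive and 2 negative. Their sums overlapped, with 45.6 to 63.4 RPKM in fasted Lpin1-/- and 24.7 to 63.2 RPKM in fasted Lpin1+/+ libraries. The part of these cell types in the results for Ctsb and the other genes was not tested.

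**Figure D3:**
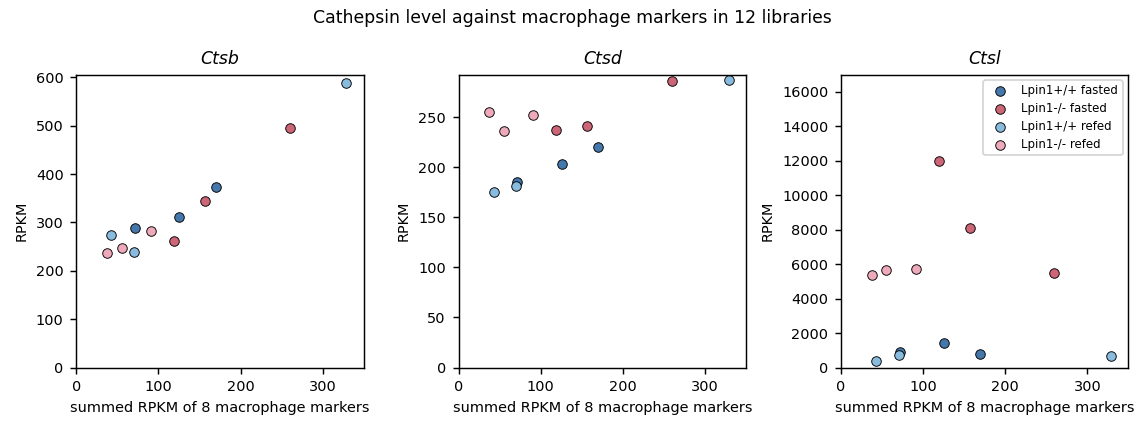
RPKM of Ctsb, Ctsd and Ctsl (vertical axes, from 0) against the summed RPKM of 8 macrophage markers (horizontal axes) in 12 libraries, coloured by group. The libraries with the most macrophage marker RNA have the highest Ctsb, and Ctsl lies in a low band of Lpin1+/+ and a high band of Lpin1-/- libraries.

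The 18 genes that neither passed in a comparison nor had the highest level of their role, Ctsb, Ctsd, Optn and Lamp2 among them, are summarised together. Their log2 differences lay between -0.97 and 0.66 for genotype in fasted liver, -0.40 and 0.64 for genotype in refed liver, -0.51 and 0.41 for refeeding in Lpin1+/+ and -0.66 and 1.15 for refeeding in Lpin1-/- liver. The largest of these belonged to Nbr1, a receptor for ubiquitin-tagged cargo, with 8.72, 18.3 and 18.0 RPKM in fasted and 53.0, 27.2 and 24.4 RPKM in refed Lpin1-/- libraries. Nbr1 was called for refeeding only when the first fasted Lpin1+/+ library, where it was at 63.1 RPKM, was left out (adjusted p = 0.0342). Without that library, 10 of the 35 genes were called for refeeding in Lpin1-/- liver rather than 5. The added ones were Atg12, Atg3, Atg4b, Nbr1 and Optn, although that library is in neither of the groups compared and acts through the spread shared by all groups.

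The promoters were searched for CACGTG, a 6-letter core that TFEB and TFE3 can bind but that other helix-loop-helix factors also bind. The word is its own reverse complement, so both strands were read at once, and the window ran from 250 bases before to 50 after a start site of RefSeq (GRCm38). Of the 35 genes, 29 had a promoter in the table, and 9 of them (31.0%) held the word, against 8.09% of 27025 genes. The 9 were Atg14, Atg3, Atg5, Atg7, Bnip3, Ctsd, Ctsl, Lamp1 and Mcoln1. The 27025 genes, unlike the 35, were not filtered for expression in these livers, and the shares were not tested against each other. The start used was within 100 bases of the annotated 5′ end of the gene for 19 of 33 promoters, and 5 of those 19 held the word. For Ctsl it was 370 bases and for Atg7 27999 bases away from that end, so for these genes the window may not be the promoter in use. Of the genes that passed in some comparison, 10 had a promoter and 3 held the word (Atg7, Bnip3 and Ctsl). The windows of Map1lc3b and Lipa did not hold it, and that of Lamp1, which passed nowhere, held 4 copies. A link between the word and the differences was not tested. Bnip3 is shown because its difference passed and its start lay 13 bases from the annotated end. The sequence covers the 250 bases before the start on the minus strand, chr7:138909507-138909756, with the word in capitals.

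Bnip3 promoter: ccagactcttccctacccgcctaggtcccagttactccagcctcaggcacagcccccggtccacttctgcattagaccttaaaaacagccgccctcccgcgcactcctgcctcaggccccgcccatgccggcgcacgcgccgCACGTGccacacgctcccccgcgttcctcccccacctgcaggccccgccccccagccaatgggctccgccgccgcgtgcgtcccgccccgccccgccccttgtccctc

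Between the word and the start site of Bnip3 lie 102 bases. A match of letters is a description of the sequence, and binding was not measured.

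Skipped exon events were the other readout for these genes. For each event, the deposited tables give counts of reads that include an exon and of reads that join its neighbours and skip it, and the inclusion level is the length-adjusted share of inclusion. Coding exons of Wipi2, Ulk1 and Lipa were skipped in part of the RNA of fasted Lpin1-/- liver and in none of the counts of fasted Lpin1+/+ liver. In fasted liver, 469 events in 34 of the 35 genes were tested between genotypes and 71 events in 21 genes passed in limma (15.1%, against 10.8% of all events tested). Of the 71, 57 had lower and 14 higher inclusion in Lpin1-/- liver. Events overlap, and the 71 shared 29 skipping junctions, with 28 of them in Ctsl over 2 junctions. Only 10 of the 71, in 6 genes, differed in inclusion by at least 0.1, and the count ranged from 13 to 87 when 1 library was left out (16 to 26 without any one Lpin1+/+ library, and 13 and 25 without the first and second listed Lpin1-/- library). In refed liver 13 of 391 events passed (3.32%, against 1.03% of all events), and 0 of them passed in limma once any 1 library was left out, with 0 differing by at least 0.1. For refeeding, only events listed in both the fasted and the refed table could be compared, 183 of them in 29 of the 35 genes, and 12 passed in Lpin1-/- liver (6.56%, against 7.32% of all events). In Lpin1+/+ liver 0 of 183 passed in limma (8 at an unadjusted p below 0.05), as did 0% of all events.

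Wipi2, Ulk1 and Lipa had these annotated coding exons skipped in all 3 fasted Lpin1-/- libraries, and the calls held with any 1 of the 6 libraries left out. Their exons are shown in capitals, each with 20 bases of the neighbouring exons of the transcript in lower case, so that skipping joins the lower-case parts. The Wipi2 exon is exon 5 of transcript Wipi2-201, chr5:142659065-142659162 on the plus strand. The Ulk1 exon is exon 20 of Ulk1-201, chr5:110789342-110789535 on the minus strand. The Lipa exon is exon 6 of Lipa-201, chr19:34507009-34507145 on the minus strand (all GRCm38, GENCODE transcripts).
Wipi2 exon: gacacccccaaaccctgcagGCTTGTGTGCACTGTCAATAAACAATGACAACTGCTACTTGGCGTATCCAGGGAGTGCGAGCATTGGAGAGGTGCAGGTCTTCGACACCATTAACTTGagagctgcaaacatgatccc
Ulk1 exon: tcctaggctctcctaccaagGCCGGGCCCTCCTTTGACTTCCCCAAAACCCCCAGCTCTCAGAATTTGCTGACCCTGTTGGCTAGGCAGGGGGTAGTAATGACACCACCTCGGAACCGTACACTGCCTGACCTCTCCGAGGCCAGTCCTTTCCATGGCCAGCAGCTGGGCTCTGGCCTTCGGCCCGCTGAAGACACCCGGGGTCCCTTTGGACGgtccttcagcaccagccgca
Lipa exon: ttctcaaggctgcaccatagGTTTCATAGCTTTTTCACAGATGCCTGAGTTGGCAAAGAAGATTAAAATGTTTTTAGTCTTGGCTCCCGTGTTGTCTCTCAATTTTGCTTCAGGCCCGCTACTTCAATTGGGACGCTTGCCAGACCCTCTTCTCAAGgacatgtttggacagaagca

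The exons are 98, 194 and 137 bases long, and each length leaves a remainder of 2 on division by 3, so that the joined transcript is out of frame after the junction.

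The Wipi2 exon had 29, 21 and 13 skipping counts in the fasted Lpin1-/- libraries beside 390, 467 and 583 inclusion counts. It had 0 in all fasted Lpin1+/+ libraries, where 0 of 2325 counts allows a share of up to 0.129% of the raw counts, counting error only. This limit is not length-adjusted, and on the scale of the inclusion level it is higher, here and for the exons below. Mean inclusion was lower by 0.101 in fasted Lpin1-/- liver (adjusted p = 0.00112). In refed liver the skipping counts were 0, 0 and 0 in Lpin1+/+ and 1, 1 and 2 in Lpin1-/- libraries, and inclusion rose by 0.0982 on refeeding in Lpin1-/- liver (adjusted p = 0.00106). The Wipi2 exon was thus skipped in part of the transcripts of fasted Lpin1-/- liver and almost fully included after refeeding. This call held in 12 of 12 fits that each left out 1 library. In all, 5 Wipi2 events over 2 skipping junctions passed between genotypes in fasted liver, with differences in inclusion from -0.621 to 0.0299. For refeeding in Lpin1-/- liver 5 Wipi2 events over 2 junctions passed, with differences from 0.0462 to 0.559.

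The Lipa exon followed the same pattern at a lower level. Its skipping counts were 7, 9 and 5 in fasted Lpin1-/- libraries beside 877, 1147 and 947 inclusion counts. They were 0, 0 and 0 in fasted Lpin1+/+ libraries (0 of 9001 counts, which allows a share of up to 0.0333% of the raw counts). Refed libraries had 0, 1 and 0 in Lpin1+/+ and 0, 0 and 0 in Lpin1-/- liver. Inclusion of the Lipa exon differed by -0.0208 between genotypes in fasted liver (adjusted p = 0.00132) and rose by 0.0208 on refeeding in Lpin1-/- liver (adjusted p = 0.00106). The total level of Lipa was also lower in fasted Lpin1-/- liver, as given above.

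Skipping of the Ulk1 exon had 13, 34 and 8 counts in fasted Lpin1-/- libraries, with inclusion levels of 0.840, 0.865 and 0.969. Fasted Lpin1+/+ libraries had 0 of 2852 counts, which allows a share of up to 0.105% of the raw counts. The mean difference was -0.109 (adjusted p = 0.00395). This Ulk1 event was not listed in the refed table, so its level after refeeding is not given.

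Other exons were skipped more in the cargo receptor genes Nbr1 and Optn. A 111-base annotated exon of Nbr1, not coding throughout, at chr11:101553988-101554098 had inclusion levels of 0.991, 1.00 and 0.993 in fasted Lpin1+/+ and 0.909, 0.827 and 0.833 in fasted Lpin1-/- libraries (difference -0.138, adjusted p = 0.00354). The Nbr1 groups did not overlap, and in refed liver the same event was not called (adjusted p = 0.668). A 129-base exon of Optn at chr2:5062859-5062987, annotated but not coding throughout, had the largest difference of those named, with inclusion levels of 0.853, 0.822 and 0.868 against 0.346, 0.547 and 0.276 (difference -0.458, adjusted p = 0.0207). It rested on 5 to 28 skipping counts per library and passed in only 2 of the 6 fits that left out 1 library.

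Inclusion was also gained where the annotation has no exon. A 79-base stretch of Atg5 at chr10:44273383-44273461 had 0, 0 and 1 inclusion counts in fasted Lpin1+/+ and 6, 14 and 15 in fasted Lpin1-/- libraries (adjusted p = 0.00312), and 0, 0 and 0 against 7, 6 and 9 in refed liver (adjusted p = 0.0268, lost without any 1 library). The Atg5 stretch was therefore read in all 6 Lpin1-/- livers, at inclusion levels of 0.00489 to 0.0235. A 59-base stretch of Bnip3 at chr7:138896277-138896335 had 1, 0 and 0 inclusion counts against 23, 12 and 66 in fasted liver (adjusted p = 0.00714), beside 4597 to 14456 skipping counts, and an 88-base stretch of Lamp2 at chrX:38431139-38431226 had 0, 0 and 0 against 4, 3 and 7 (adjusted p = 0.00944). In both genes the gained form was a very small share of the RNA. In Ctsl, the 28 events that passed in fasted liver differed by only -0.0307 to -0.000779 in inclusion. The named Ctsl event, at chr13:64366479-64366641, had 1, 0 and 0 skipping counts beside 30846 to 55351 inclusion counts in Lpin1+/+ libraries, and 121, 145 and 34 beside 215854 to 459873 in Lpin1-/- libraries, and its call held in only 1 of the 6 fits that left out 1 library.

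The remaining 12 genes with a called event in fasted liver, among them Becn1, Atg16l1, Map1lc3b, Atg13 and Ulk2, kept the call of their named event in at most 2 of the 6 fits that left out 1 library. Becn1 had 0, 0 and 0 skipping counts of a 61-base exon in Lpin1+/+ against 12, 13 and 2 in Lpin1-/- libraries (adjusted p = 0.0107), and Ulk2 had 0, 0 and 0 inclusion counts of an 86-base stretch that is not an annotated exon against 10, 13 and 0 (adjusted p = 0.0208). The third listed library stood apart from the other two in both.

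**Figure D4:**
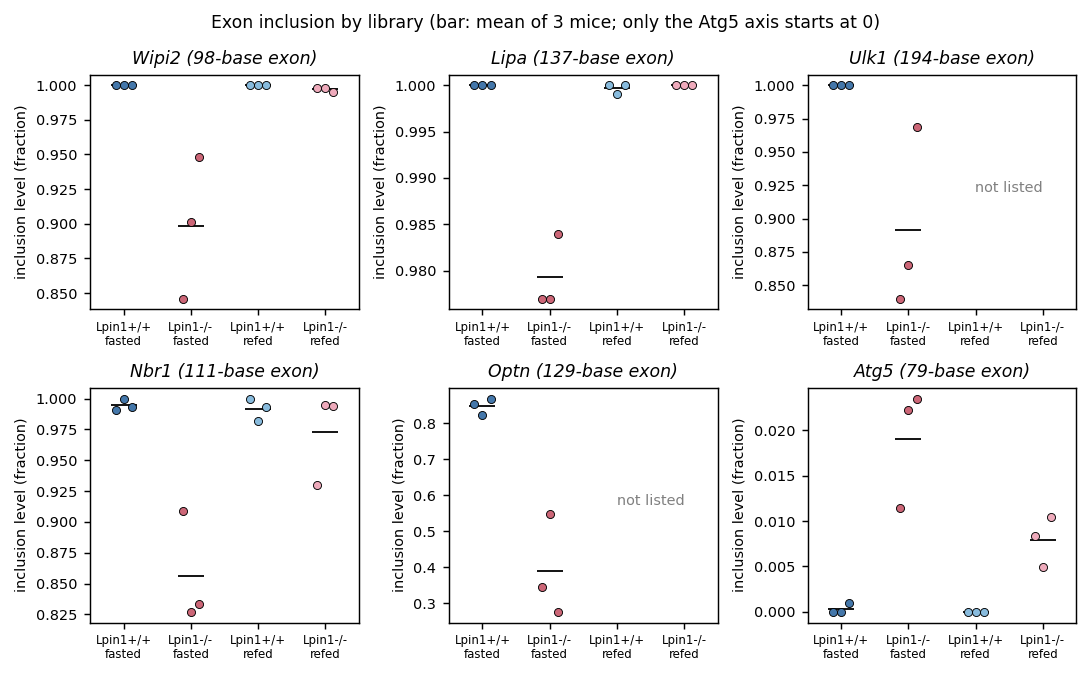
Inclusion level (vertical axes, a fraction, on scales that differ between panels) of 6 exons in the libraries of each group (horizontal axes), with 1 point for each mouse and a bar for the mean. Wipi2 and Lipa lie at or near 1 in all groups but fasted Lpin1-/-, where their means are 0.898 and 0.979, and the Ulk1 and Optn events are not listed in refed liver.

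Other genes of the pathway were taken from 7 lists of 163 genes. In fasted liver, the V-ATPase, the proton pump that acidifies the lysosome, had 5 of 17 subunit genes higher and 0 lower in Lpin1-/- liver, with a list median of 0.35 on the log2 scale beside -0.14 over all genes. Of all 11507 genes tested, 648 were higher and 1520 lower (18.8% in all). They included Atp6v1g1 (log2 fold change 1.20, 103 to 230 RPKM) and Atp6v0b (1.10, 127 to 259 RPKM), of which Atp6v0b lost the call without any one of 5 libraries (adjusted p from 0.0511 to 0.108). The other lysosomal hydrolases had 3 of 38 lower and 0 higher, and the other lysosomal membrane proteins 2 of 19 lower and 0 higher. Of the other autophagy machinery, 2 of 34 were higher and 5 lower. Of the other cargo receptors 2 of 13 were higher and 1 lower, of the mTORC1 and AMPK genes 2 of 27 higher and 1 lower, and of the transcription regulators 3 of 13 higher and 2 lower. The lists were tested neither against each other nor against all genes.

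The largest differences of these lists in fasted liver were higher Trp53inp1 and Fam134b and lower Trp53inp2 and Stbd1. Trp53inp1, a stress protein that binds ATG8 proteins, had a mean of 13.2 RPKM in Lpin1+/+ and 112 RPKM in Lpin1-/- liver (log2 fold change 3.34, SE 0.70, adjusted p = 0.00807), with the highest Lpin1+/+ value, 29.1 RPKM, in the first library. Fam134b, a receptor for autophagy of the endoplasmic reticulum, went from 34.1 to 325 RPKM (log2 fold change 3.28, SE 0.45, adjusted p = 0.000948). Trp53inp2, a related nuclear and autophagosomal protein, went from 70.1 to 15.7 RPKM (-2.12, adjusted p = 0.00982), and Stbd1, which binds glycogen and ATG8 proteins, from 58.0 to 16.6 RPKM (-1.80, adjusted p = 0.00303). In these 4 genes no fasted Lpin1-/- library overlapped the fasted Lpin1+/+ libraries.

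In refed liver, 3 of 17 V-ATPase genes, 2 of 34 of the other autophagy machinery, 2 of 13 of the other cargo receptors and 2 of 27 nutrient sensing genes were higher in Lpin1-/- liver, 1 of 38 hydrolases and 2 of 19 membrane proteins were lower, and 0 of 13 transcription regulators passed in limma (2 at an unadjusted p below 0.05), beside 6.67% of all genes. Fam134b (15.3 to 189 RPKM, log2 fold change 3.34, adjusted p = 0.00237) and Trp53inp1 (4.78 to 62.8 RPKM, 2.98, adjusted p = 0.0294) had the largest positive differences. The refed Lpin1-/- libraries were at 342, 108 and 118 RPKM of Fam134b and 138, 21.3 and 29.6 RPKM of Trp53inp1, so that the first library was far above the others in both. Without that library Trp53inp1 did not pass (2.18, adjusted p = 0.0931), nor without any one of 4 other refed libraries, whereas Fam134b passed without any 1 library. The largest negative differences were those of Slc36a1, a lysosomal amino acid transporter (8.66 to 3.61 RPKM, -1.05, adjusted p = 0.0494), and Acp2, a lysosomal acid phosphatase (26.1 to 14.8 RPKM, -0.77, adjusted p = 0.0412). With the replicate block neither passed (adjusted p = 0.0835 for Slc36a1 and 0.0772 for Acp2), and each lost the call without any one of 9 libraries.

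Refeeding of Lpin1+/+ liver moved 1 gene of the 7 lists, Xbp1, a transcription factor of the unfolded protein response, which rose from 78.7 to 198 RPKM (log2 fold change 1.33, SE 0.24, adjusted p = 0.0196), beside 1.72% of all genes. With median-ratio scaling this rise of Xbp1 was 1.09 and did not pass (adjusted p = 0.117), nor did it without any one of 3 libraries (adjusted p from 0.0575 to 0.0945). In Lpin1-/- liver, refeeding moved 5 of 34 genes of the other autophagy machinery, 2 of 13 cargo receptors, 1 of 17 V-ATPase genes, 2 of 38 hydrolases and 3 of 19 membrane proteins, all upward, where 2046 of all genes rose and 336 fell (20.7% in all). It moved 6 of 27 nutrient sensing genes (5 up, 1 down) and 6 of 13 transcription regulators (4 up, 2 down). The largest rises were those of Nr1h4, the bile acid receptor FXR (18.4 to 72.9 RPKM, log2 fold change 1.91, adjusted p = 0.000350), and Xbp1 (43.9 to 165 RPKM, 1.88, adjusted p = 0.000779). Sesn1, a sestrin that restrains mTORC1 (32.1 to 2.23 RPKM, -3.31, adjusted p = 0.000350), and Foxo3, a forkhead factor of autophagy genes (16.9 to 3.07 RPKM, -2.20, adjusted p = 0.00795), fell most.

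**Figure D5:**
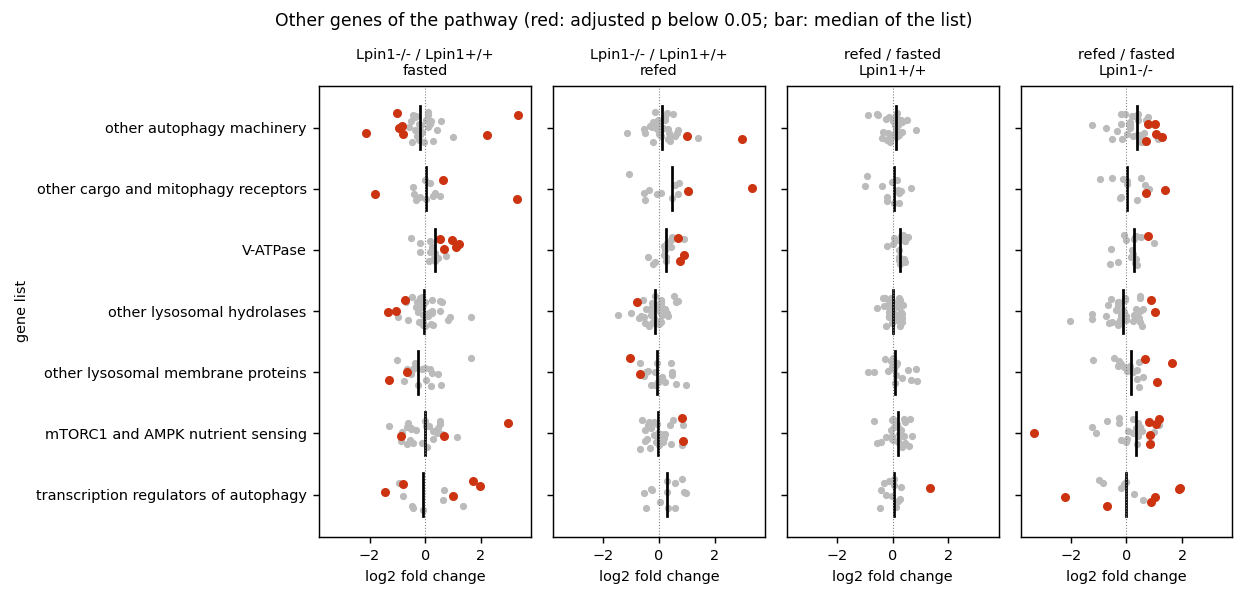
Log2 fold change (horizontal axes) of each gene of the 7 lists (vertical axis) in the 4 comparisons, with 1 point for each gene, red where the adjusted p of limma was below 0.05, and a bar at the list's median. Red points of the V-ATPase lie only on the right of 0 in fasted and refed liver, and the column of refeeding in Lpin1+/+ liver has 1 red point, Xbp1.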

How the data were processed

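Per the labels and the study's methods, the authors made stranded TruSeq RNA libraries (paired-end reads), aligned them with HISAT2 2.0.5 to GRCm38, counted genes with HTSeq 0.6.0 and deposited RPKM. Their notes also name DESeq2 1.20.0. The deposited exon tables hold inclusion and skipping read counts from rMATS, whose version is not given in the sources used here. The tables' own p-values were not used. Group values are lists of 3 libraries without replicate numbers.

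log2(RPKM + 1) was fitted for 11507 genes in 1 model of 4 groups with limma 3.58.1 (R 4.3.3), with a variance trend. Exon events needed 10 counts or more per library and were fitted as log2 ratios after adding 0.5 to each count. The Benjamini-Hochberg adjustment covered all genes or all events, with a threshold of 0.05. Both scripts were tested on simulated data. P-values measure the spread between 3 mice per group.

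The genes, roles and lists were chosen with earlier results of these data known. Genes past the threshold in any comparison and the highest of each role are given by library; Optn, Nbr1, Ctsb and Lamp2 were added after their values were seen. Of the wider lists, the 2 largest in each direction are named, with V-ATPase genes added later. The named event of a gene is the one with the largest mean of the rarer form, with ties broken by inclusion counts and exon length, a step added after the values were seen. The alternatives for genes of the wider lists were added after seeing the data. Relative depth was read from the smallest RPKM steps.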

Additional observations from a re-analysis of the deposited data

Results flagged for a closer look

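The interaction of genotype and feeding passed in limma for 4 genes of the wider lists, which hold 163 genes, beside 147 of all 11507 genes (1.28%). By list it passed for 1 of 34 genes of the other autophagy machinery, 2 of 27 nutrient sensing genes and 1 of 13 transcription regulators. These shares were not tested against that of all genes. For Nr1h4 (FXR) it was 2.04 on the log2 scale (SE 0.27, adjusted p = 0.00794), from -0.12 on refeeding in Lpin1+/+ and 1.91 in Lpin1-/- liver. For Sesn1 it was -3.47 (SE 0.47, adjusted p = 0.00913), from 0.17 and -3.31. For Flcn (folliculin, which acts on Rag GTPases upstream of TFEB) it was 1.73 (SE 0.35, adjusted p = 0.0399), from -0.69 and 1.04. For Stx17, a SNARE of autophagosome fusion, it was 1.20 (SE 0.23, adjusted p = 0.0327), from -0.20 and 1.01. The interactions of Nr1h4 and Sesn1 passed without any 1 library. Those of Flcn and Stx17 were lost without any one of 10 and 9 libraries, and with the replicate block (adjusted p = 0.0805 and 0.0620).

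Optn had every Lpin1-/- library below every Lpin1+/+ library in fasted liver and above them in refed liver. The test of that difference gave 0.81 on the log2 scale (SE 0.27) and did not pass (adjusted p = 0.156). Single outlying values were not searched for in groups of 3.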

How the results depend on the processing

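Each of the 35 genes named as called kept its direction in all alternatives in which it was tested, which were 19 for each call and 18 for Tfeb, which fell under a mean of 5 RPKM. All of them were passed by Ctsl, Map1lc3b (genotype, both states), Lipa (fasted), Bnip3, Tfeb and Atg16l1 (refeeding). Of the 19, Atg16l1 (genotype) passed 18, Map1lc3b (refeeding) 17, Ulk2 15, Uvrag 14, Wipi2 13, Gabarapl1 12 and Atg7 10. In fasted liver 3 rather than 6 of the 35 genes passed with only the 6 libraries compared, and 3 to 7 when 1 library was left out (3 without the third Lpin1+/+ library). The counts with 1 library left out were 3 to 5 for genotype in refed liver, 0 for refeeding in Lpin1+/+ liver, 2 to 10 for refeeding in Lpin1-/- liver (10 without the first fasted Lpin1+/+ library, 3 without the second fasted, first refed or second refed and 2 without the third refed Lpin1-/- library) and 0 to 1 for the interaction. The cause of these changes was not tested.

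Of the exon events, requiring a difference in inclusion of at least 0.1 left 10 of 71 in fasted liver, 0 of 13 in refed liver and 4 of 12 for refeeding in Lpin1-/- liver. A variance trend, chosen after seeing the data, gave 73, 10 and 13 in the same order. Adding 1 rather than 0.5 to each count gave 28 rather than 13 in refed liver. Leaving out 1 library gave 13 to 87, 0 to 0 and 7 to 18 in the same order, the 7 without the first or second fasted or the second refed listed Lpin1-/- library.

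Same-numbered refed libraries deviated together in all 3 pairs (correlation 0.162 to 0.297). Between fasted genotypes the correlations of same-numbered libraries were -0.474 to -0.226. Between feeding states they were -0.016 to 0.251 in Lpin1+/+ and -0.441 to -0.204 in Lpin1-/- liver. Fasted Lpin1+/+ and refed Lpin1-/- libraries, which meet only in the interaction, had 0.39 to 0.743, beside -0.7 to 0.628 for pairs with unlike numbers. With the replicate block, the counts stayed at 6 and 4 for genotype in fasted and refed liver, 5 and 0 for refeeding in Lpin1-/- and Lpin1+/+ liver and 0 for the interaction, and no call among the 35 genes changed. For the exon events, no paired analysis was possible because their tables carry no replicate numbers.

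Small skipping counts limit the exon levels, and with 0 counts the log2 ratio depends on the added count. RPKM carry no read totals, so counting error per gene is unknown. The mice differed in age and the groups in time of day.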
